A study of Mus musculus with 24 samples.

Results

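The 10 genes described here belong to the endoplasmic reticulum (ER) stress response and to the response driven by the transcription factor ATF4. They were chosen by symbol, and each of the 10 was found among the 18314 entries of the long RNA count table. Ddit3 had a second entry, ENSMUSG00000116429, which held no read, so that 11 entries carried the 10 symbols. All 10 genes passed the filter on low counts and were tested together with the other genes, 13832 in all. The RNA came from livers of WT male C57BL/6 mice, with 4 mice per group. HFD plus HQHF mice ate a high-fat diet and were given HQHF (Huatanqushihuoxue Formula, a herbal preparation) by gavage after 12 weeks of that diet, at a dose that the labels do not give for these libraries. HFD mice ate the high-fat diet alone, a common way to induce fatty liver in mice, and control mice ate a normal diet. The groups were compared over 10 livers, HFD plus HQHF 1, 2 and 4, HFD 1, 2, 3 and 4, and control 1, 3 and 4.

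Cells respond to unfolded protein in the ER through 3 membrane sensors, PERK, IRE1 and ATF6. PERK phosphorylates the translation factor eIF2alpha, which slows most protein synthesis and raises translation of ATF4, so ATF4 protein can change with little change in its mRNA. Other kinases that sense amino acid shortage, viral RNA or haem deficiency act on the same factor, and the shared output is called the integrated stress response. IRE1 splices the Xbp1 mRNA into the form that encodes an active factor, a step that counts per gene do not show, and ATF6 and spliced XBP1 raise chaperone and degradation genes. In liver, which secretes most plasma proteins, both arms are known to respond to overfeeding with fat.

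The promoter table held all 10 genes, and short elements known to be bound by these factors were looked for in it, from 250 bases before to 50 bases after each start. The sequences are RefSeq's, on build GRCm38.p6, and they are shown because these elements are the textbook link between the 10 genes and the ATF6, XBP1 and ATF4 factors. The ER stress element ERSE (CCAAT and CCACG with 9 bases of any kind between them), which ATF6 and XBP1 bind, was found in Hspa5 alone of the 10 genes, 65 bases before the start on the plus strand at chr2:34772000-34772059. The related element ERSE-II (ATTGG and CCACG with 1 base between them) was found in Herpud1 alone of the 10 genes, 52 bases before the start, at chr8:94386299-94386398 on the plus strand. Both strands were searched, and of 32851 promoters 0.119% held the ERSE and 0.0365% the ERSE-II. Capitals mark the matches, and the second run of capitals in Herpud1 is an ATF4 element described next.
Hspa5: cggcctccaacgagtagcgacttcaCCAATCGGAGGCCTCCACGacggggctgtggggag
Herpud1: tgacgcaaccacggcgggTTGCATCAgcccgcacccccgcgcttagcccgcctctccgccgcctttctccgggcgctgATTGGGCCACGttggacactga

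The element bound by dimers of ATF4 and C/EBP proteins, called CARE here and searched as TGATGNAA on both strands, was found in 5 of the 10 promoters and in 3.97% of all promoters. It lay 110 bases before the start in Atf3 (chr1:191183414-191183473, minus strand), 112 in Herpud1, 139 in Fgf21 (chr7:45615601-45615660, minus strand) and 23 in Asns (chr6:7693210-7693269, minus strand). In Trib3 it lay 15 bases after the start (chr2:152344031-152344054, minus strand). The sequences run 5′ to 3′ along the gene, so a match to the opposite strand reads TTGCATCA or TTACATCA, and capitals mark it. The unfolded protein response element UPRE (TGACGTGG, in 0.676% of promoters) and the cAMP response element CRE (TGACGTCA, in 1.79%) were in none of the 10 windows. A match is a description of the letters and not of binding in these livers.
Atf3: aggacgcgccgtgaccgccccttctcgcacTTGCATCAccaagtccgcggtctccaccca
Fgf21: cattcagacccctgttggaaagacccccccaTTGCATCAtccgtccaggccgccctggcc
Asns: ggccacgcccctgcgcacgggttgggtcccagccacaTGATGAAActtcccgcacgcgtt
Trib3: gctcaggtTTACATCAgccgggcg

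The 10 libraries held 36198931 to 46454404 counts. Levels are in CPM, reads relative to the library's total after correction by TMM (trimmed mean of M values), whose factors were 1.2 to 1.42 in HFD livers and 0.763 to 0.939 in the others. Differences are log2 fold changes with their SE from edgeR's quasi-likelihood test, and a gene was called where its p, adjusted by Benjamini-Hochberg over all 13832 genes, was under 0.05. Without TMM the median gene was 0.66 higher in HFD than in control livers and 0.62 lower in HFD plus HQHF than in HFD livers (log2), against 0.06 and -0.07 with it. The comparison leaves out HFD plus HQHF 3 and control 2, libraries labelled liver in which Alb, the hepatocyte gene for serum albumin, was at 0.743 and 46.4 CPM by library total, against 35100 to 92200 CPM in the 10 livers. In these 2 libraries 10 adipocyte genes summed to 18100 and 19380 CPM by library total, against 22.8 to 584.5 CPM in the 10 livers. Marker RNA of other tissues also varied among the 10. The summed level of 12 pancreatic acinar genes was 3274 CPM in control 1 and at most 26.5 CPM elsewhere. That of 10 adipocyte genes was 413 CPM in HFD 3, 122 CPM in HFD 4 and at most 79.6 CPM elsewhere. Each mouse had its own batch code, and p-values measure the spread between these livers. Levels are not compared between genes, since no transcript lengths were used.

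In HFD against control livers 2 of the 10 genes were called, Trib3 higher and Herpud1 lower, where 26.2% of all genes were called (16.3% higher, 9.89% lower). In HFD plus HQHF against HFD livers 3 of 10 were called, Ddit3, Atf3 and Trib3, all lower, where 18.9% of all genes were called (7.85% higher, 11.1% lower). In HFD plus HQHF against control livers none of the 10 was called, and the background there was 0% of 13832 genes by edgeR's quasi-likelihood test (1008 genes, 7.29%, at an unadjusted p under 0.05, 72 genes with DESeq2 and 1 gene when only those 2 groups were fitted). The median log2 fold change of the 10 genes was 0.21 in HFD against control, -0.40 in HFD plus HQHF against HFD and -0.52 in HFD plus HQHF against control, and that of all genes was 0.06, -0.07 and 0.02. With HFD plus HQHF 3 and control 2 included none of the 10 was called in any comparison. Trib3 was then at 1.83 (adjusted p = 0.109) and Herpud1 at -0.69 (adjusted p = 0.626) in HFD against control. Ddit3 was at -1.19 (adjusted p = 0.417), Atf3 at -2.06 (adjusted p = 0.512) and Trib3 at -0.98 (adjusted p = 0.316) in HFD plus HQHF against HFD. Atf3 was at 211 CPM by library total in control 2, and Asns was at 82.9 CPM in HFD plus HQHF 3 and 101 CPM in control 2. The first 2 comparisons share the 4 HFD livers, so their opposite signs are not independent.

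**Figure D1:**
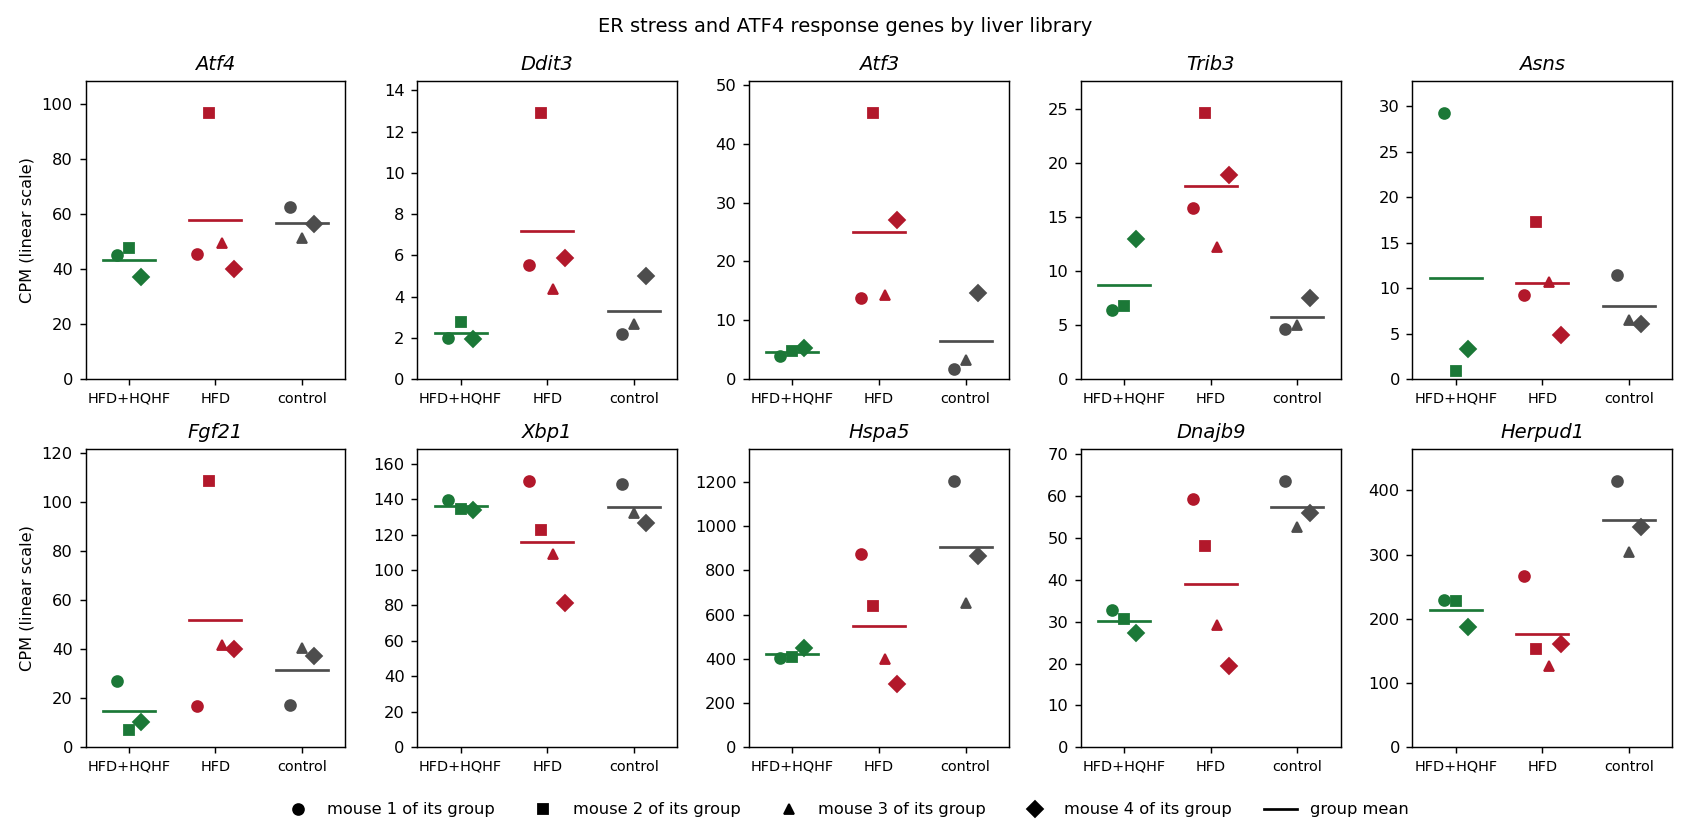
Level of each of the 10 genes (CPM, linear axis from 0, one panel per gene) in HFD plus HQHF, HFD and control livers; each point is 1 liver, its shape the mouse number within its group, and the line is the group mean. Ddit3 and Atf3 points of all 3 HFD plus HQHF livers lie below all 4 HFD points, Hspa5 spreads from 284 to 872 CPM in HFD livers, and Asns from 0.965 to 29.2 CPM in HFD plus HQHF livers.

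Of the 10 genes 4 encode bZIP transcription factors, and the file's own annotation gives a bZIP_1 domain to Atf3, Atf4 and Xbp1 (0.272% of annotated genes have it). Atf4 (ENSMUSG00000042406), the central factor of the integrated stress response, had 45.1, 47.7 and 37.1 CPM in HFD plus HQHF livers, 45.6, 96.7, 49.6 and 40.1 CPM in HFD livers and 62.5, 51.4 and 56.4 CPM in control livers. HFD 2 stood well above the other HFD livers, and the remaining 3 HFD livers lay below the lowest control liver. The difference of HFD from control was 0.03 ± 0.27 (95% interval -0.57 to 0.63, adjusted p = 0.944), and without HFD 2 it was -0.33. HFD plus HQHF differed from HFD by -0.42 ± 0.27 (interval -1.02 to 0.18, adjusted p = 0.292) and from control by -0.39 ± 0.29 (adjusted p = 0.798), although all HFD plus HQHF livers lay below all control livers.

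Ddit3 (ENSMUSG00000025408) encodes CHOP, a factor induced by ATF4 that is linked to cell death under lasting stress. It had 1.98, 2.76 and 1.94 CPM in HFD plus HQHF livers, 5.52, 12.9, 4.39 and 5.88 CPM in HFD livers and 2.18, 2.69 and 5.01 CPM in control livers. The HFD plus HQHF livers all lay below the HFD livers, an order that 17.2% of all genes showed, and control 4 overlapped the HFD range. Ddit3 fell in HFD plus HQHF against HFD livers (log2 fold change -1.69 ± 0.42, adjusted p = 0.0222). It did not pass the test in HFD against control livers (1.13 ± 0.41, adjusted p = 0.0622), nor in HFD plus HQHF against control livers (-0.56 ± 0.43, adjusted p = 0.806). Leaving out HFD plus HQHF 1, 2 or 4 ended the first call (adjusted p = 0.0883, 0.0594 and 0.0688), and leaving out control 4 or HFD 3 gave a call in HFD against control (1.55 and 1.30, adjusted p = 0.0458 and 0.0347).

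Atf3 (ENSMUSG00000026628), an immediate stress-induced factor that can repress its targets, had 3.99, 4.72 and 5.31 CPM in HFD plus HQHF livers, 13.8, 45.2, 14.3 and 27.0 CPM in HFD livers and 1.76, 3.31 and 14.6 CPM in control livers. Again the HFD plus HQHF livers lay below every HFD liver, and again control 4 overlapped the HFD range while the other control livers did not. Atf3 fell in HFD plus HQHF against HFD livers (-2.42 ± 0.72, adjusted p = 0.0453), close to the threshold. That call was lost without HFD 1, 2 or 4, without control 3 and without any 1 of the HFD plus HQHF livers, with adjusted p between 0.0535 and 0.145 and log2 fold changes between -2.63 and -1.98. HFD against control gave 1.94 ± 0.70 (adjusted p = 0.0681), and without control 4 it was 3.30 (adjusted p = 0.017). HFD plus HQHF differed from control by -0.48 ± 0.73 (adjusted p = 0.915), and by 0.88 without control 4.

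Xbp1 (ENSMUSG00000020484), whose mRNA is the splicing target of IRE1, had the smallest biological coefficient of variation of the 10, 0.207, against a median of 0.239 over all tested genes. Its levels were 139.5, 134.3 and 134.2 CPM in HFD plus HQHF livers, 150.3, 122.5, 108.9 and 81.5 CPM in HFD livers and 148.7, 132.4 and 126.3 CPM in control livers. The HFD livers spread most, and the 3 groups overlapped. Its differences were -0.23 ± 0.19 in HFD against control (interval -0.65 to 0.19, adjusted p = 0.388), 0.23 ± 0.19 in HFD plus HQHF against HFD (adjusted p = 0.405) and 0.00 ± 0.20 in HFD plus HQHF against control (interval -0.44 to 0.45, adjusted p = 0.999). With library totals in place of TMM the first became 0.36 and the second -0.31.

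On the folding side, Hspa5 (ENSMUSG00000026864) encodes BiP, the main ER chaperone and the protein that keeps the sensors silent. Its levels were 405, 410 and 450 CPM in HFD plus HQHF livers, 872, 640, 400 and 284 CPM in HFD livers and 1205, 653 and 866 CPM in control livers. The HFD plus HQHF livers differed by a factor of 1.11 at most and all lay below the lowest control liver, whereas the HFD livers differed by a factor of 3.07 and overlapped both other groups. The difference of HFD plus HQHF from control was -1.11 ± 0.38, with an unadjusted p of 0.0138 in edgeR's quasi-likelihood test and an adjusted p of 0.621. HFD against control gave -0.73 ± 0.35 (adjusted p = 0.141), which passed the threshold without HFD 1 (-1.04, adjusted p = 0.0469), and HFD plus HQHF against HFD gave -0.38 ± 0.35 (adjusted p = 0.47).

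Dnajb9 (ENSMUSG00000014905), the ER co-chaperone ERdj4 that works with BiP and helps to repress IRE1, followed Hspa5 closely. It had 32.7, 30.6 and 27.4 CPM in HFD plus HQHF livers, 59.4, 48.1, 29.2 and 19.5 CPM in HFD livers and 63.7, 52.6 and 56.0 CPM in control livers. The order of the 4 HFD livers was the same as for Hspa5, and all HFD plus HQHF livers again lay below all control livers. Over the 10 livers each was the nearest of all other tested genes to the other, with a root mean square difference of 0.18 in log2 CPM centred per gene. No comparison of Dnajb9 was called. HFD plus HQHF against control gave -0.93 ± 0.33 (adjusted p = 0.643), HFD against control -0.56 ± 0.30 (adjusted p = 0.196) and HFD plus HQHF against HFD -0.37 ± 0.31 (adjusted p = 0.418).

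Herpud1 (ENSMUSG00000031770) encodes an ER membrane protein that assembles the ER-associated degradation machinery, and its promoter above carries both the ERSE-II and the CARE letters. It had 229, 228 and 187 CPM in HFD plus HQHF livers, 267, 152, 127 and 161 CPM in HFD livers and 415, 304 and 344 CPM in control livers. All HFD livers lay below all control livers, as for 15.9% of all genes, and so did all HFD plus HQHF livers, while HFD and HFD plus HQHF overlapped. Herpud1 fell in HFD against control livers (-1.0 ± 0.24, a fold of 0.499, adjusted p = 0.0156). The call was lost without control 1, the liver with acinar RNA (-0.88, adjusted p = 0.062), also when HFD 3 was left out with it (-0.75, adjusted p = 0.0763), and with library totals (-0.42, adjusted p = 0.14). HFD plus HQHF against HFD gave 0.28 ± 0.24 (adjusted p = 0.44) and HFD plus HQHF against control -0.72 ± 0.26 (adjusted p = 0.643). Hspa5, Dnajb9, Herpud1 and Atf4 were thus lower in all HFD plus HQHF than in all control livers, where 6.72% of all genes showed that order, and none of the 4 was called.

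**Figure D2:**
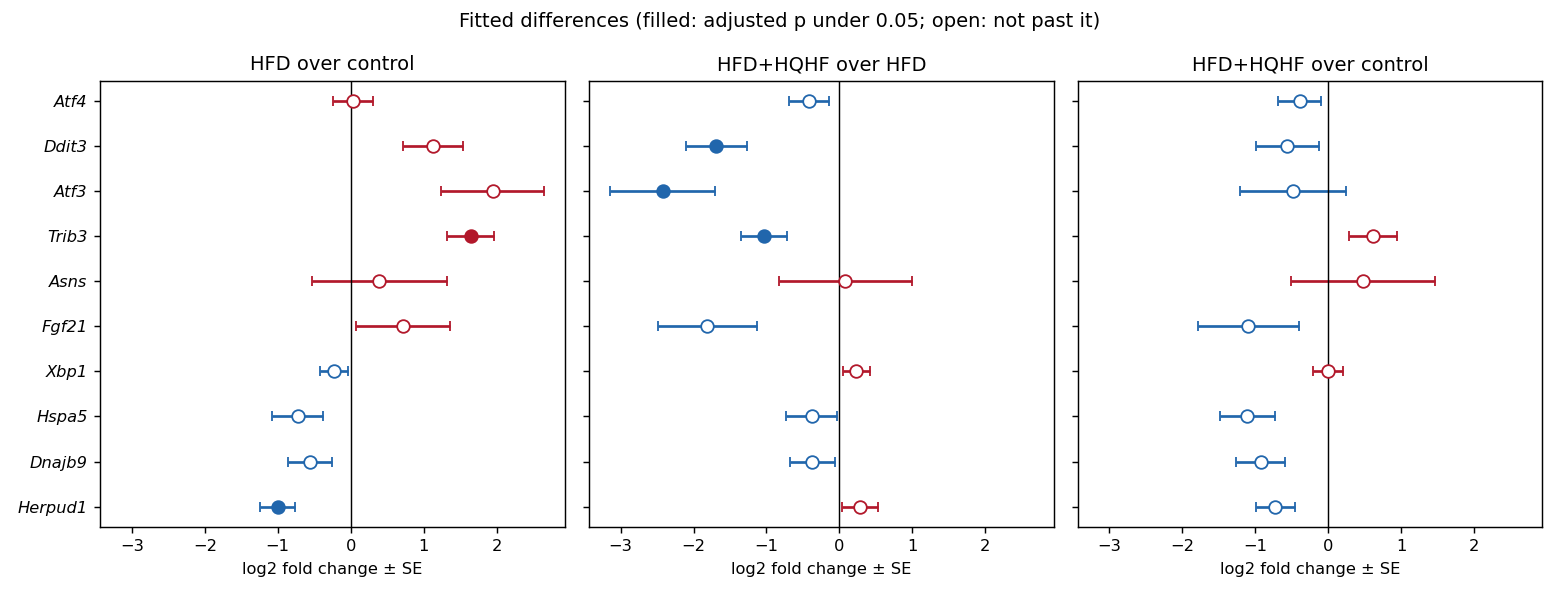
Log2 fold change of each of the 10 genes with its SE (x axis) in HFD over control, HFD plus HQHF over HFD and HFD plus HQHF over control; filled points have an adjusted p under 0.05 by edgeR's quasi-likelihood test, open points do not, red is higher and blue is lower. Trib3 (1.65) and Herpud1 (-1.0) are filled in the first panel, Ddit3 (-1.69), Atf3 (-2.42) and Trib3 (-1.04) in the second, and none in the third.

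Among the effectors, Trib3 (ENSMUSG00000032715), a pseudokinase induced by ATF4 and CHOP that binds AKT and ATF4, had the smallest adjusted p of the 10 genes in HFD against control livers. It had 6.46, 6.81 and 12.97 CPM in HFD plus HQHF livers, 15.9, 24.7, 12.3 and 18.9 CPM in HFD livers and 4.67, 4.997 and 7.55 CPM in control livers. All HFD livers lay above all control livers, as for 20.8% of all genes, and HFD plus HQHF 4 overlapped the lowest HFD liver, HFD 3. Trib3 rose in HFD against control livers (1.65 ± 0.32, a fold of 3.13, adjusted p = 0.00724), and this call held when any 1 of the 10 libraries was left out. It fell in HFD plus HQHF against HFD livers (-1.04 ± 0.31, a fold of 0.488, adjusted p = 0.0421). That second call was lost without control 1 or 3, HFD 1, 2 or 4, or HFD plus HQHF 1 or 2, with adjusted p between 0.0512 and 0.152 and log2 fold changes between -1.09 and -0.85. HFD plus HQHF against control gave 0.61 ± 0.33 (adjusted p = 0.719).

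Asns (ENSMUSG00000029752), asparagine synthetase and a standard ATF4 target, had 29.2, 0.965 and 3.32 CPM in HFD plus HQHF livers, 9.28, 17.3, 10.7 and 4.92 CPM in HFD livers and 11.4, 6.51 and 6.09 CPM in control livers. HFD plus HQHF 1 was the highest and HFD plus HQHF 2 the lowest of all 10 livers, a span of 30.3-fold within a group. The gene's biological coefficient of variation was 0.79, larger than that of 97.7% of tested genes. Its differences were 0.39 ± 0.92 in HFD against control (adjusted p = 0.78) and 0.08 ± 0.91 in HFD plus HQHF against HFD (interval -1.97 to 2.14, adjusted p = 0.959). Without HFD plus HQHF 1 the second was -2.29, and the difference from control, 0.48 ± 0.98 (adjusted p = 0.939), was -1.90.

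Fgf21 (ENSMUSG00000030827), the hepatokine by which liver signals nutrient stress and a target of both ATF4 and PPARA, had 26.8, 7.17 and 10.3 CPM in HFD plus HQHF livers, 16.7, 108, 41.8 and 39.95 CPM in HFD livers and 17.1, 40.3 and 37.1 CPM in control livers. HFD 2 was the highest of the 10 livers, and HFD 1 lay below control 1, so that the groups overlapped. HFD plus HQHF against HFD gave -1.81 ± 0.68 (interval -3.33 to -0.29, adjusted p = 0.0863), a value that DESeq2's Wald test placed past the threshold (-1.77, adjusted p = 0.044). HFD against control gave 0.72 ± 0.65 (adjusted p = 0.438), and HFD plus HQHF against control -1.09 ± 0.69 (adjusted p = 0.76).

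The livers did not order the 10 genes alike. Within the HFD group, HFD 2 had the highest level of Atf4, Ddit3, Atf3, Trib3, Asns and Fgf21, and HFD 1 had the highest level of Xbp1, Hspa5, Dnajb9 and Herpud1. Within the control group, control 1 was highest for Xbp1, Hspa5, Dnajb9 and Herpud1, and also for Atf4 and Asns, whereas control 4 was highest for Ddit3, Atf3 and Trib3. The part of acinar RNA in the levels of control 1, the liver with 3274 CPM of acinar genes, was not tested. After Hspa5 with Dnajb9, the nearest pairs among the 10 were Dnajb9 with Herpud1 (root mean square difference 0.403) and Hspa5 with Herpud1 (0.406), and the farthest was Atf3 with Herpud1 (1.77). Ddit3 was nearest to Trib3 (0.563) and Atf3 to Ddit3 (0.712). Outside the 10, the nearest gene was Dffb for Atf4 (0.217), Tacc3 for Ddit3 (0.278), Pbk for Atf3 (0.465), Slc30a5 for Xbp1 (0.106), Amy1 for Herpud1 (0.214), Zfp518b for Trib3 (0.23), Hrob for Asns (0.794) and Cdk2ap1rt for Fgf21 (0.664). These are descriptions over 10 livers that also differ by group and in TMM factor.

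**Figure D3:**
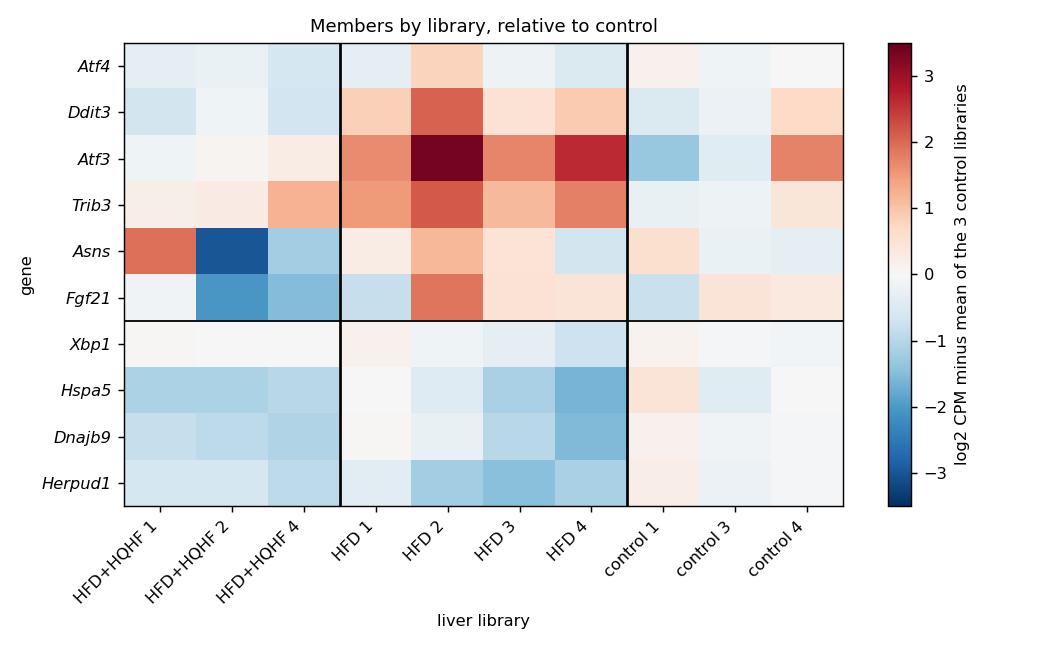
Log2 CPM of each of the 10 genes (rows) in each liver (columns, grouped as HFD plus HQHF, HFD and control) minus the mean of the 3 control livers; red is above and blue below that mean, and the line separates the stress and amino acid genes from the folding genes. HFD 2 is red for all 6 genes above the line, and Hspa5, Dnajb9 and Herpud1 are blue in all 3 HFD plus HQHF livers.

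Marker RNA of some cell types differed between the same groups. Summed levels of endothelial and Kupffer cell genes overlapped between the groups. No endothelial gene was called, whereas 2 of 12 Kupffer cell genes were called higher and 4 lower in HFD against control. The summed level of 12 monocyte and recruited macrophage genes was 38.1 to 46.4 CPM in HFD plus HQHF livers, 220 to 699 CPM in HFD livers and 39.1 to 48.0 CPM in control livers. Of these, 11 of the 12 were called higher in HFD against control and 9 lower in HFD plus HQHF against HFD. For 12 stellate cell genes it was 376 to 498 CPM in HFD plus HQHF livers, 499 to 1558 CPM in HFD livers and 350.5 to 445 CPM in control livers, with 9 higher and then 9 lower. For 16 hepatocyte genes it was 118600 to 156000 CPM in HFD plus HQHF livers, 57300 to 97450 CPM in HFD livers and 147400 to 178000 CPM in control livers, with 9 lower and then 8 higher. Of all genes 16.3% were higher and 9.89% lower in HFD against control, then 7.85% higher and 11.1% lower in HFD plus HQHF against HFD. No gene of these 3 lists was at 0 in any of the 10 livers. The part of these cells in the differences of Ddit3, Atf3, Trib3 and Herpud1, and of the pathway genes described next, was not tested. Fewer cells of a type and less RNA per cell cannot be told apart in bulk RNA.

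The wider pathway was described by 11 lists with 147 tested genes, which exclude the 10. In HFD against control livers 22 of the 147 were higher and 8 lower, both smaller shares than among all genes (16.3% higher, 9.89% lower). In HFD plus HQHF against HFD livers 6 were higher, a smaller share than the 7.85% of all genes, and 25 lower, a larger share than the 11.1% of all genes. In HFD plus HQHF against control livers none was called. The medians farthest from 0 among the 11 lists were those of serine, one-carbon and proline synthesis in both comparisons. Of its 9 genes 6 rose in HFD against control livers (median of the 9 log2 fold changes, 2.16) and 7 fell in HFD plus HQHF against HFD livers (median -2.17), where the median of all genes was 0.06 and -0.07. Psat1, which makes phosphoserine on the route to serine, averaged 0.642 ± 0.145 CPM in HFD plus HQHF livers, 8.82 ± 4.42 CPM in HFD livers and 0.544 ± 0.085 CPM in control livers (SD). It rose by 4.01 ± 0.43 in HFD against control (adjusted p = 0.000932) and fell by 3.78 ± 0.43 in HFD plus HQHF against HFD (adjusted p = 0.00178). Aldh18a1, the entry enzyme of proline synthesis, rose by 2.16 ± 0.33 (adjusted p = 0.00328) and fell by 2.16 ± 0.33 (adjusted p = 0.00415) in the same comparisons.

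Of 8 tested amino acid transporters 4 rose in HFD against control livers (16.3% of all genes did) and 5 fell in HFD plus HQHF against HFD livers (11.1% of all genes did). Slc7a1, the carrier of arginine and lysine, had 1.78, 1.56 and 1.75 CPM in HFD plus HQHF livers, 6.34, 6.86, 17.7 and 8.96 CPM in HFD livers and 1.26, 0.974 and 0.952 CPM in control livers. The HFD livers all lay above the rest, and the differences were 3.22 ± 0.38 (adjusted p = 0.0012) in HFD against control and -2.55 ± 0.36 (adjusted p = 0.00372) in HFD plus HQHF against HFD. Slc1a5, a glutamine carrier, gave 2.21 ± 0.40 (adjusted p = 0.00548) and -2.78 ± 0.41 (adjusted p = 0.00391). Its level was 10.1 CPM in HFD 3, the liver with 413 CPM of adipocyte genes, and 3.92 to 5.29 CPM in the other HFD livers. Both Slc1a5 calls were kept in 10 of 10 fits with 1 library left out. Slc7a1 was also highest in HFD 3. Psat1 was at 10.9 CPM in HFD 3, against 14.0 CPM in HFD 2, 5.63 CPM in HFD 1 and 4.69 CPM in HFD 4. The part of adipocyte RNA in the levels of the transporters and of the serine, one-carbon and proline genes was not tested. Slc7a3 was too low to be tested. HFD plus HQHF 1, the liver with 29.2 CPM of Asns, was at 1.78 CPM for Slc7a1 and 0.804 CPM for Psat1. With HFD plus HQHF 3 and control 2 included no gene of the lists was called, and in HFD against control Psat1 was at -0.44 and Slc1a5 at -3.51.

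**Figure D4:**
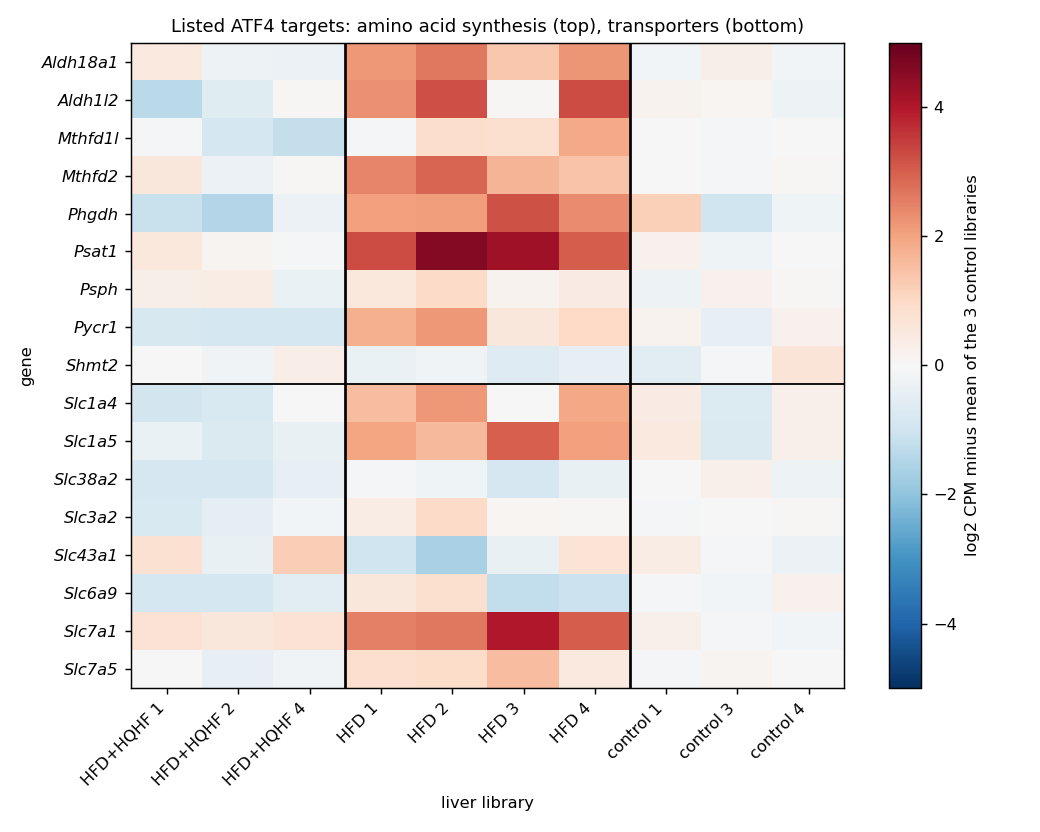
Log2 CPM (prior count 2) of the listed ATF4 targets of amino acid synthesis (above the line) and amino acid transport (below it) in each liver, minus the mean of the 3 control livers; red is above and blue below that mean. Psat1 and Slc7a1 are red in all 4 HFD livers and closer to the control mean in the 3 HFD plus HQHF livers, whereas Shmt2 and Slc38a2 show no such step.

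Among 18 other stress effectors downstream of ATF4, 5 were higher and 1 lower in HFD against control livers, and 3 were lower in HFD plus HQHF against HFD livers. Of all genes 16.3% were higher and 9.89% lower in the first comparison, and 11.1% were lower in the second. Pck2, the mitochondrial form of phosphoenolpyruvate carboxykinase, averaged 5.05 ± 1.16 CPM in HFD plus HQHF livers, 14.3 ± 4.83 CPM in HFD livers and 4.47 ± 1.31 CPM in control livers. Its differences were 1.68 ± 0.32 in HFD against control (adjusted p = 0.00713) and -1.50 ± 0.32 in HFD plus HQHF against HFD (adjusted p = 0.0136, and 0.0611 without HFD plus HQHF 2). The second Pck2 call was kept in 8 of 10 fits with 1 library left out. Slc7a11, the cystine carrier, had 1 read in the HFD plus HQHF livers together, 669 in the HFD livers and 4 in the control livers. The ratio of HFD plus HQHF to HFD, corrected for depth, was 0.00293 (95% counting interval 7.41e-05 to 0.0164), and that of HFD to control was 83.2 (32.3 to 306), intervals that cover counting error only. CHOP-linked cell death genes were higher in 5 of 9 cases in HFD against control (16.3% of all genes) and lower in 3 of 9 in HFD plus HQHF against HFD (11.1% of all genes). Tnfrsf10b, the death receptor DR5, gave 2.58 ± 0.38 (adjusted p = 0.0031) and -2.56 ± 0.38 (adjusted p = 0.00391). Bcl2l11, which encodes BIM, gave 1.24 ± 0.23 (adjusted p = 0.0065) and -0.44 ± 0.23 (adjusted p = 0.191). The anti-apoptotic Bcl2 is counted among the 3 lower genes of this list, so that count is not of death-promoting genes alone. Bcl2 gave 1.08 ± 0.39 (adjusted p = 0.0603) and -1.43 ± 0.39 (adjusted p = 0.0314, and 0.0938 without HFD plus HQHF 1). The Bcl2 call was kept in 6 of 10 fits with 1 library left out. Of 12 aminoacyl-tRNA synthetases none was called in HFD against control and only Sars was called, lower, in HFD plus HQHF against HFD (-0.52 ± 0.16, adjusted p = 0.0461). That call was kept in 2 of 10 fits with 1 library left out (adjusted p up to 0.132, without HFD plus HQHF 2). Tars was at -0.78 ± 0.29 in HFD against control (adjusted p = 0.0692) and Wars1 at -0.42 ± 0.16 in HFD plus HQHF against HFD (adjusted p = 0.0867). The synthetase calls depended on scaling. Library totals in place of TMM gave 6 higher in HFD against control and 9 lower in HFD plus HQHF against HFD, none the other way.

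Few genes of the folding machinery were called, and neither Hspa5 nor Dnajb9 was. Of all genes 16.3% were higher and 9.89% lower in HFD against control. In HFD plus HQHF against HFD 7.85% were higher and 11.1% lower. None of 21 ER chaperones and folding enzymes was called in HFD against control livers (median -0.14), and 2, Cnpy2 and Pdia5, were higher in HFD plus HQHF against HFD livers (0.79 ± 0.16 and 0.78 ± 0.20, adjusted p = 0.0121 and 0.0244). Without HFD plus HQHF 1 these were at adjusted p = 0.0602 and 0.0956. The 2 calls were kept in 9 and 6 of 10 fits with 1 library left out. Of 18 genes of ER-associated degradation 4 fell in HFD against control livers, as Herpud1 did, among them the p97 cofactor Nploc4 (-0.62 ± 0.17, adjusted p = 0.0242, and up to 0.0737 with 1 library left out, without control 1). The Nploc4 call was kept in 6 of 10 such fits. Of 17 translocon and signal peptidase genes none was called in HFD against control and 1, Srprb, was lower in HFD plus HQHF against HFD (-0.69 ± 0.22, adjusted p = 0.0487). The translocon partners Sec62 and Sec63 were at -0.49 ± 0.17 and -0.41 ± 0.18 in HFD against control (adjusted p = 0.0601 and 0.111). Ssr4 and the mannosidase Edem3 were at 0.56 ± 0.22 and -0.39 ± 0.14 in HFD plus HQHF against HFD (adjusted p = 0.0898 and 0.0755). None of 8 mitochondrial stress genes was called in either comparison. The chaperonin gene Hspd1 was at -0.64 ± 0.24 and the protease gene Yme1l1 at -0.39 ± 0.14 in HFD against control (adjusted p = 0.0694 and 0.0599). Hspe1, its co-chaperonin, was at 0.79 ± 0.26 in HFD plus HQHF against HFD (adjusted p = 0.0529). With library totals in place of TMM, where the median gene also shifted as given above, the calls in these lists changed. The translocon list had 8 higher in HFD against control and 10 lower in HFD plus HQHF against HFD. The mitochondrial list had 2 higher, then 2 lower, and neither list had a call the other way. The degradation list had 6 higher and none lower in HFD against control and none higher and 9 lower in HFD plus HQHF against HFD, and the chaperones had 4 higher and none lower, then none higher and 5 lower. Of the genes named here, Sec62, Sec63 and Yme1l1 turned in HFD against control (0.0965, 0.167 and 0.215). Nploc4 and Hspd1 kept their sign there but shrank (-0.0259 and -0.0334), and Nploc4 was no longer called (adjusted p = 0.91). In HFD plus HQHF against HFD, Cnpy2 (0.223), Pdia5 (0.235), Ssr4 (0.0166) and Hspe1 (0.219) kept their sign but shrank. The Cnpy2 and Pdia5 calls were lost (adjusted p = 0.368 and 0.337). Srprb (-1.22) and Edem3 (-0.935) grew, and both were called (adjusted p = 0.00145 and 0.00274). The Srprb call was kept in 2 of 10 fits with 1 library left out (adjusted p up to 0.139, without HFD plus HQHF 2).

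Of 18 sensors and regulators, 1 was higher and 1 lower in HFD against control livers (16.3% and 9.89% of all genes). In HFD plus HQHF against HFD livers 1 was higher and 4 lower (7.85% and 11.1% of all genes). These counts depended on scaling. Library totals in place of TMM gave 12 higher in the first comparison and 10 lower in the second, none the other way. Eif2ak3, which encodes PERK, rose by 0.80 ± 0.24 (adjusted p = 0.0323, and 0.109 without control 4) in HFD against control and fell by 1.21 ± 0.24 (adjusted p = 0.0109, and 0.0536 without HFD plus HQHF 1) in HFD plus HQHF against HFD. With 1 library left out the first Eif2ak3 call was kept in only 4 of 10 fits and the second in 8 of 10. Creb3l3, a liver ER membrane factor that acts with PPARA on Fgf21, fell by 1.03 ± 0.22 (adjusted p = 0.0107) in HFD against control and rose by 1.07 ± 0.22 (adjusted p = 0.0129, and 0.0504 without HFD plus HQHF 1) in HFD plus HQHF against HFD. Ppara itself, from the list of FGF21 receptors and regulators, averaged 476 CPM in HFD plus HQHF livers, 223 CPM in HFD livers and 497 CPM in control livers. Its differences were -1.16 ± 0.21 (adjusted p = 0.00571) in HFD against control and 1.09 ± 0.21 (adjusted p = 0.00954) in HFD plus HQHF against HFD. Klb, the co-receptor for FGF21, gave -0.69 ± 0.17 (adjusted p = 0.0182) and 0.57 ± 0.17 (adjusted p = 0.045). With 1 library left out these reached adjusted p = 0.0521 (without control 4) and 0.129 (without HFD plus HQHF 4), and the second call was kept in 2 of 10 such fits. With library totals Creb3l3 was at -0.41 and 0.50 (adjusted p = 0.145 and 0.0864), Ppara at -0.54 and 0.52 (adjusted p = 0.0894 and 0.105) and Klb at -0.09 and 0.01. Fgfr2, an FGF receptor, gave 0.58 ± 0.22 (adjusted p = 0.0676) and -0.72 ± 0.22 (adjusted p = 0.0422). The second call was kept in 2 of 10 fits with 1 library left out (adjusted p up to 0.148, without HFD plus HQHF 1). Of the 9 tested genes of the list of FGF21 receptors and regulators 1 was higher and 2 were lower in HFD against control livers (16.3% and 9.89% of all genes). Likewise 2 were higher and 1 lower in HFD plus HQHF against HFD (7.85% and 11.1% of all genes). Fap was too low to be tested.

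**Figure D5:**
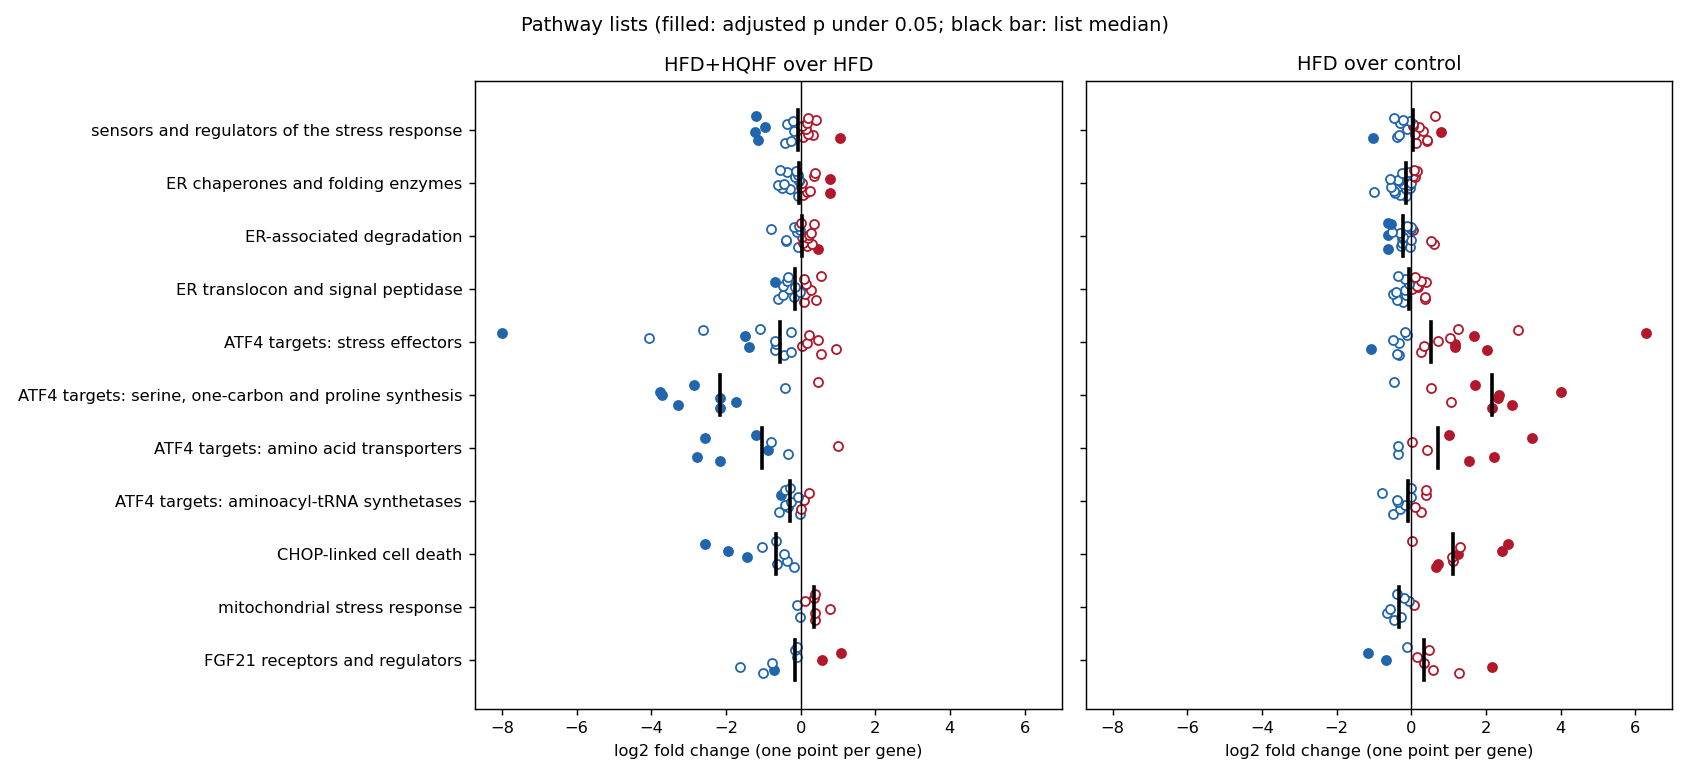
Log2 fold change of each tested gene of the 11 pathway lists (x axis) in HFD plus HQHF over HFD and HFD over control; filled points have an adjusted p under 0.05, red is higher, blue is lower, and the black bar is the list's median. The serine, one-carbon and proline list has medians of -2.17 and 2.16, and the chaperone list medians of -0.04 and -0.14. The point at -8.01 is Slc7a11, whose fitted value rests on 1 read in the HFD plus HQHF livers together. It depends on the fit's own prior count, not on the 2 used for log2 CPM.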

How the data were processed

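Long RNA libraries were made from total liver RNA with a stranded kit and removal of ribosomal RNA, per the labels' protocols. The deposited table holds whole-number counts per gene, made by the authors, not normalized. HISAT2, RSEM and build GRCm39 are named, per the submitters' processing notes, with versions and roles not given in the sources used here. The miRNA counts were not used here.

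The statistics used edgeR 4.0.16 (with limma 3.58.1 and the package data.table, version 1.17.8) under R 4.3.3. Plots and the promoter search used Python 3.11.15, with numpy 2.4.6 and matplotlib 3.10.9. After filterByExpr by group and TMM, 1 robust quasi-likelihood model held the 3 group means of 10 libraries, 13832 genes were adjusted together by Benjamini-Hochberg, and the SE was the log2 fold change divided by the square root of F. On simulated data for HFD against control (13800 genes, rounded), 35% of 100 genes changed by 1 and 83% of 100 changed by 2 (log2) were called, and 0.0447% of unchanged genes. In the livers 26.2% of genes were called. The Benjamini-Hochberg cut-off depends on how many genes change, so these shares do not give the share of true changes found in the livers. No libraries held identical counts (66 pairs), and the depth of 36198931 to 46454404 counts gave each tested gene of the 10 at least 37 reads per library.

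The 10 genes, the pathway lists and the marker lists were chosen with earlier results of these data known. Named in the text are the 10 genes and, from each pathway list, the 2 genes with the smallest p in HFD against control and the 2 in HFD plus HQHF against HFD, with 1 exception that is not reported here, and likeness is the root mean square difference of centred log2 CPM (prior count 2). Alternatives were all 12 libraries, DESeq2 1.42.0, RLE scaling, library totals, no filter, a minimum of 1 CPM in 3 or more libraries, fits to the groups compared, the number as a block, and each library left out.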

Additional observations from a re-analysis of the deposited data

Results flagged for a closer look

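Of the 10 genes, tested for a single far sample within the 4 HFD livers (the other groups of 3 were not tested), Atf4 had 1. HFD 2 was at 96.7 CPM, against 45.6, 49.6 and 40.1 CPM in the other HFD livers. Its gap to the next liver was 0.832 of the group's range, just past Dixon's critical value for 4 samples. Chance alone marks about 1 in 20 such groups, and 10 were examined. For Ddit3, highest in the same liver, the share was 0.825, just short of that value. The HFD 2 library held 44652078 counts, within the range of the 10.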

How the results depend on the processing

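Main counts of called genes were 3625 of 13832 in HFD against control, 2618 in HFD plus HQHF against HFD and 0 in HFD plus HQHF against control, with 2, 3 and 0 of the 10 genes and 30, 31 and 0 of the 147 pathway genes. With all 12 libraries these were 7 genes, 0 of the 10 and 0 pathway genes in HFD against control, and 1, 0 and 0 in HFD plus HQHF against HFD. DESeq2 called 4 of the 10 in HFD against control (3 higher, 1 lower) and 72 genes in HFD plus HQHF against control. Library totals gave 7195 genes (7041 higher, 154 lower) and 72 pathway genes in HFD against control, and 6633 genes (137 higher, 6496 lower), 7 of the 10 and 84 pathway genes in HFD plus HQHF against HFD. With no filter 1 of the 10 was called in HFD plus HQHF against HFD, and with only the libraries of the 2 groups 1 gene in HFD plus HQHF against control. With the replicate number as a block 1719 genes were called in HFD plus HQHF against HFD and 2840 in HFD against control, with 3 of the 10 in each. Same-numbered livers of different groups did not deviate together (correlations of deviations -0.0542 to 0.119 over 8 pairs, against -0.177 to 0.13 over 25 pairs of different numbers), so numbers were not treated as pairs. Leaving out control 1 and HFD 3 together, an alternative chosen after the data were seen, gave 2369 genes and 1 of the 10 in HFD against control. Leaving out 1 library at a time gave 1568 to 3882 genes, 1 to 4 of the 10 and 13 to 35 pathway genes in HFD against control (lowest without control 1 for the genes and the 10, and without control 3 for the pathway genes), 633 to 3301, 0 to 3 and 10 to 38 in HFD plus HQHF against HFD (lowest without HFD plus HQHF 1), and 0 throughout in HFD plus HQHF against control. Signs turned, for log2 fold changes that were not called, as follows. In HFD against control Atf3 was -0.56 and Asns -1.02 with all 12 libraries, Xbp1 0.36 and Dnajb9 0.022 with library totals, and Atf4 -0.23 with the block and, with 1 library left out, between -0.33 (without HFD 2) and 0.18 (without HFD 4), with -0.094 without control 3. In HFD plus HQHF against HFD Xbp1 was -0.31, Herpud1 -0.25 and Asns -0.53 with library totals, and Asns -0.70 with the block and, with 1 library left out, between -2.29 (without HFD plus HQHF 1) and 0.63 (without HFD plus HQHF 2), with -0.16 without HFD 4. In HFD plus HQHF against control Xbp1 was -0.12 with all 12 libraries, -0.026 with the block and between -0.049 (without control 4) and 0.071 (without control 1) with 1 library left out. There Asns was -0.15 with the block and between -1.90 (without HFD plus HQHF 1) and 1.02 (without HFD plus HQHF 2), and Atf3 between -0.93 (without control 1) and 0.88 (without control 4). Of the alternative values for single genes of the 10, 507 kept their direction and side of the threshold, 21 turned, 28 lost a call and 14 gained one. The cause of these changes was not tested. Counts per gene do not show Xbp1 splicing or ATF4 protein.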
